A study of Mus musculus with 4 samples.

Results

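The nuclear genes of the mitochondrial respiratory chain and ATP synthase were examined in mouse splenic regulatory T cells, a Foxp3-positive CD4 lineage that holds immune responses in check. Members were all transcript clusters, the array's unit of about 1 gene locus, with exactly 1 platform gene symbol that names a subunit of complexes I to V, cytochrome c, or a complex I assembly factor beginning with Nduf. This gave 98 of 65528 clusters, or 98 of the 30390 clusters with exactly 1 symbol, for 93 genes. Complex I had 34 clusters and its assembly factors 7, complex II 4, complex III 9, cytochrome c 2, complex IV 20 and complex V 21. The remaining cluster, for Dmac2 (Atp5sl on the platform), encodes no ATP synthase subunit and is given apart. Names containing -ps took out 2 further clusters, and 4 that list a rule symbol beside another were left out as well.

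The 2 arrays labelled KO (replicates 1 and 2) came from mice of FOXP3-CRE crossed to BMI1-flox on C57BL/6, and the 2 arrays labelled WT (replicates 1 and 3) from FOXP3-CRE crossed to C57BL/6, with B6-Tg(Foxp3EGFP-cre)1cJbs/J as the Cre transgene in both. The transgene, with its green fluorescent tag and Cre under Foxp3 control, was therefore shared by all groups. Sorting was on green fluorescence. Mice were 7 to 8 weeks old and 15000 to 40000 sorted cells gave each sample. The sample labels state that cells were untreated, the series text describes 24 h of CD3 and CD28 stimulation; which of them holds is not settled here.

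Oxidative phosphorylation passes electrons from NADH through complex I, or from succinate through complex II, to ubiquinone, then through complex III and cytochrome c to oxygen at complex IV. Complexes I, III and IV pump protons across the inner mitochondrial membrane, and complex V, the ATP synthase, uses the returning flow to make ATP. Regulatory T cells are known to lean on this pathway more than conventional effector T cells do. Bmi1 encodes a Polycomb repressive complex 1 subunit, and its loss has been linked to mitochondrial defects in mice.

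Bmi1, the targeted gene, read 9.58 and 9.91 on the log2 scale in the arrays labelled KO, against 8.98 and 8.98 in the arrays labelled WT. Its difference of 0.77 (SE 0.16, limma adjusted p 0.292) ran against the genotype label, and the groups are called by their labels throughout. The sources do not say which exons the cluster covers, and whether the labels were exchanged was not tested. An exchange would turn the sign of every difference given here. The array medians over all clusters were 4.65 to 4.69 in the arrays labelled KO and 4.67 to 4.72 in the arrays labelled WT. The regulatory T cell markers Il2ra, Ctla4, Ikzf2 and Tnfrsf18 were high in every array, with list means of 13.64 and 13.58 in the arrays labelled KO and 13.67 and 13.64 in the arrays labelled WT. Foxp3 had no cluster of its own. No source says whether each array stands for its own animal. The p-values therefore reflect the scatter among these arrays alone, which may be technical, and 2 arrays per group limit the precision.

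No respiratory chain or ATP synthase cluster passed a limma adjusted p under 0.05, against 0.00658% of all named clusters (2 of 30390). The differences were small. Of the 98 clusters, 75 had a higher mean in the arrays labelled KO and 23 a lower one, where 51.1% of all named clusters were higher and 47.9% lower, but after a further quantile normalization 41 were higher and 57 lower. The median difference was 0.08 on the log2 scale as deposited, against 0.01 over all named clusters and -0.01 over protein-coding clusters, and -0.02 after quantile normalization. In all, 84 of 98 differences lay within 0.25 of 0, and the range ran from -0.52 for Sdhc to 0.43 for a Cycs cluster. An unadjusted limma p under 0.05 was reached by 8 of 98 clusters (8.16%), against 10.2% of all named clusters and 6.95% of protein-coding ones, so the share was near the background. The order against all named clusters turned after quantile normalization (11.2% of members, against 9.49%) and without a trend (11.2%, against 10.3%). As deposited, 4 of the 98 members were higher at an unadjusted limma p under 0.05, beside 6.40% of all named clusters. Another 4 of the 98 were lower, beside 3.78%.

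The members are strongly expressed genes, and level moved with the difference. Median levels of the members were 11.15 and 11.10 in the arrays labelled KO and 11.01 and 11.14 in the arrays labelled WT, where the median named cluster read at most 5.05. Among clusters with a mean at or above 12, 34 of 41 members had a positive difference, with a median of 0.09, beside 66.0% of 655 other protein-coding clusters with a median of 0.07. Between 8 and 12, 29 of 36 members were higher (median 0.09), beside 51.4% of 4184 other protein-coding clusters (median 0.01). Below 8, 12 of 21 members were higher (median 0.01), beside 46.7% of 13949 others (median -0.01). How far level accounts for the upward count was not tested.

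**Figure D1:**
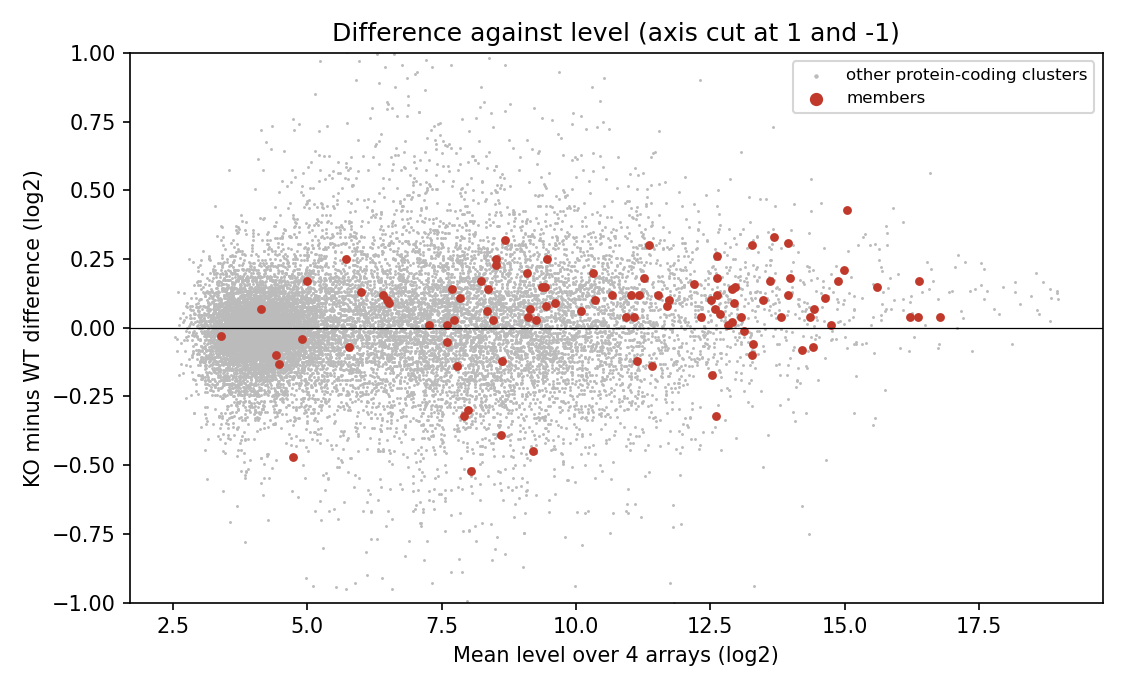
Each point is a transcript cluster, with its mean level over the 4 arrays (log2) across and its difference between the arrays labelled KO and WT (log2) upward; red points are the 98 members and grey points other protein-coding clusters, of which 84 of 18788 lie outside the axis. The members sit mostly to the right, with a median difference of 0.09 at levels of 12 and above, where the other coding clusters have 0.07.

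A single array weighed on the balance. WT replicate 1 was the lowest of the 4 arrays for 55 of 98 members (56.1%), against 24.4% of all named clusters and 32.3% of the brighter ones, and it was the highest for 3. The members' median deviation from their own mean over 4 arrays was 0.03 in both arrays labelled KO, -0.08 in WT replicate 1 and 0.03 in WT replicate 3. Without WT replicate 1, 52 differences were positive and 44 negative, and the median was 0.01. The groups did not overlap for 42.9% of members, beside 38.6% of all named clusters. These were 29 that were higher and 13 that were lower, where 21.0% and 17.5% of all named clusters were separated in these directions.

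**Figure D2:**
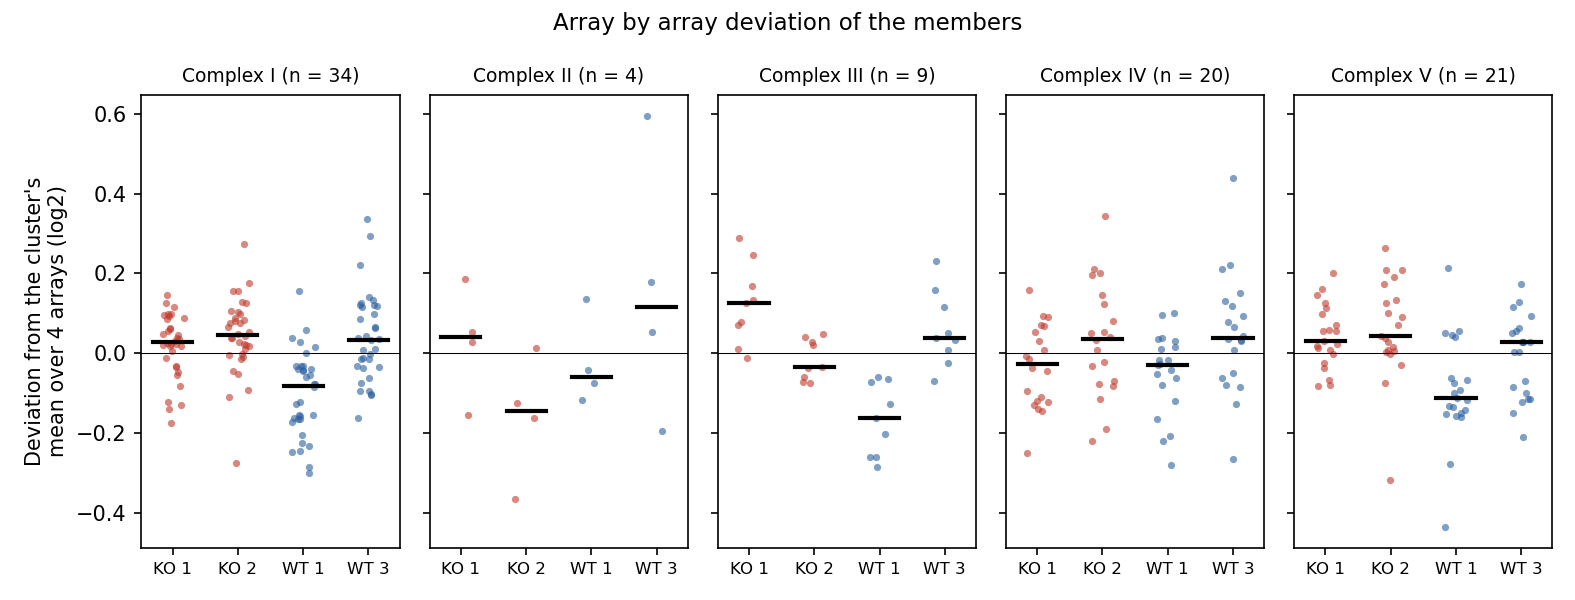
Deviation of each member from its own mean over the 4 arrays (log2, vertical axis) in each array (horizontal axis), by complex, with KO arrays in red, WT arrays in blue and the median as a bar. In complexes I, III and V the bar of WT replicate 1 lies below those of the other arrays, at -0.08, -0.16 and -0.11, whereas in complex II the lowest bar is that of KO replicate 2 (-0.14).

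Markers of other cells were examined in the same arrays. The T cell list (Cd3d, Cd3e and Cd4) was higher in the arrays labelled KO in 3 of 3 measured members, with list means of 15.83 and 15.79, against 15.42 and 15.53 in the arrays labelled WT. Cd3e differed by 0.56 (limma adjusted p 0.14), Cd4 by 0.27 and Cd3d by 0.15. The plasma cell list was higher in 3 of 4 members, with means of 5.89 and 5.87, against 5.48 and 5.55. In it, Jchain differed by 1.03 (2.04-fold, limma adjusted p 0.204), Mzb1 by 0.40 (adjusted p 0.347), Prdm1 by 0.07 and Sdc1 by -0.03. The B cell list was higher in 0 of 3 (5.45 and 5.57, against 5.56 and 5.71). The myeloid list was higher in 1 of 5 (4.50 and 4.51, against 4.59 and 4.41). In it, Cd68 differed by 0.48 (limma adjusted p 0.449), Lyz2 by -0.25 (adjusted p 0.43) and Cd14 by -0.18, each without overlap. Itgam differed by -0.02 and Csf1r by -0.01. The NK cell list was higher in 1 of 2 (4.44 and 4.49, against 4.37 and 4.55). The erythroid marker Alas2 read 4.67 and 4.77, against 4.82 and 4.74. For CD8 T cells, Cd8b1 read 10.71 and 11.26 in the arrays labelled KO and 9.74 and 10.78 in the arrays labelled WT, with Cd8a near 4 throughout. The part of these cells in the members' values was not tested, and in bulk samples fewer cells of a type and less RNA per cell cannot be told apart.

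The complexes were set side by side by counts and medians, and no difference between complexes was tested. Complex III had all 9 clusters higher in the arrays labelled KO (median 0.09), complex V 19 of 21 (0.12), complex I 27 of 34 (0.07), complex IV 11 of 20 (0.05) and complex II 2 of 4 (-0.04). After quantile normalization these medians became -0.02, 0.00, 0.00, -0.10 and -0.18, so no complex kept a median above 0.00. The SD of the differences within a complex was 0.11 in complex III, 0.15 in complexes I and V, 0.17 in complex IV and 0.27 in complex II. Without WT replicate 1 the medians of complexes I to V were 0.01, -0.13, -0.02, -0.04 and 0.04, in that order, and that of complex II was 0.02 without KO replicate 2.

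**Figure D3:**
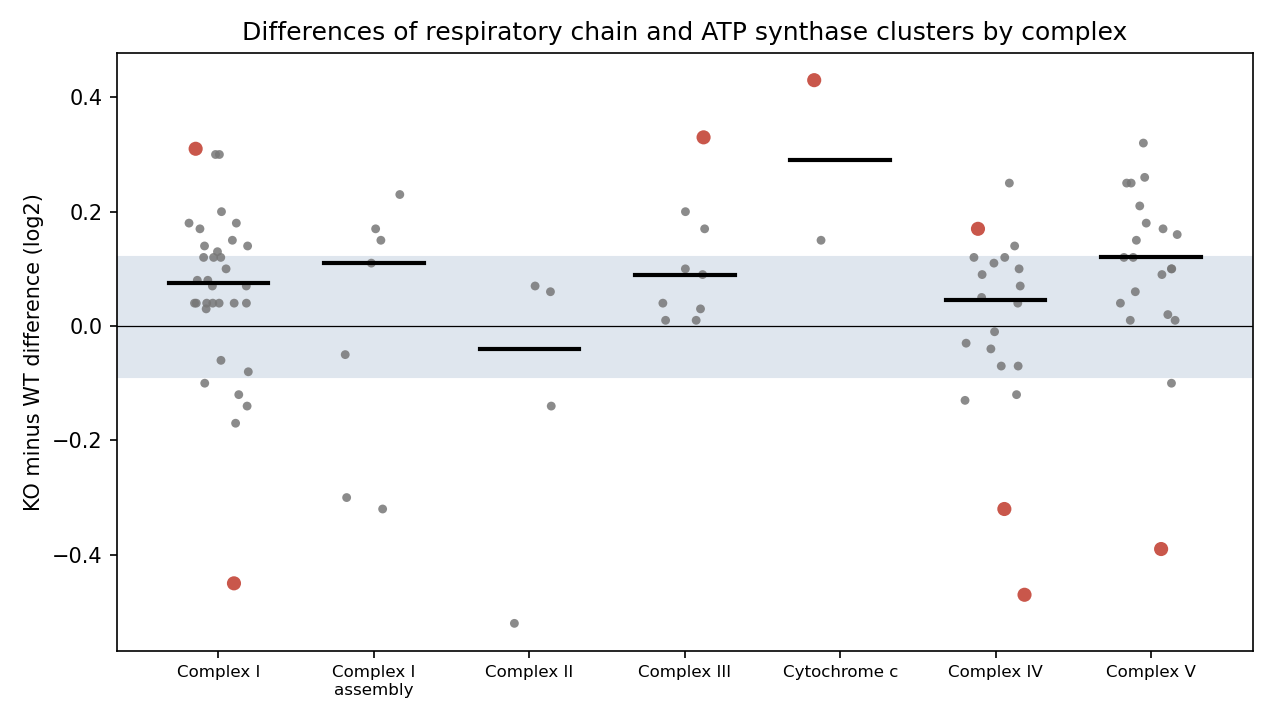
Difference between the arrays labelled KO and WT (log2, vertical axis) for each cluster, grouped by complex; bars are medians, large red points have an unadjusted limma p under 0.05, and the band spans the middle range of all named clusters (-0.09 to 0.12). Most points of every complex lie in or near the band, and the red points lie on both sides of 0.

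Complex I is the NADH entry point, and most of its nuclear-encoded core subunits carry the flavin, iron-sulphur clusters or the quinone site. Core subunits encoded by mitochondrial DNA are not members and are given further below. The 6 nuclear-encoded core subunits that were measured had a median difference of 0.12. Of these, 5 were higher and 1 lower, and after quantile normalization 4 were higher and 2 lower (median 0.07). Ndufs8, which binds iron-sulphur clusters on the way to ubiquinone, read 11.49 and 11.54 in the arrays labelled KO and 11.14 and 11.29 in the arrays labelled WT, a difference of 0.30 (SE 0.12, limma adjusted p 0.502). Both arrays labelled KO lay above both arrays labelled WT. Ndufs1, the largest subunit, carries iron-sulphur clusters near the NADH site. Ndufs1 read 7.66 and 7.78, against 7.79 and 7.93 in the arrays labelled WT, and was the nuclear-encoded core subunit that was lower. Ndufv1, which holds the flavin, read 10.99 and 10.92, against 10.77 and 11.06, and overlapped.

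The accessory subunits of complex I surround the core and stabilise it. The 12 clusters named Ndufa, including the carrier protein Ndufab1, had a narrow spread (median 0.04, -0.12 to 0.20), while the 12 named Ndufb or Ndufc, most of them in the membrane arm, ran from -0.45 to 0.31. Ndufb8, a membrane-arm subunit whose protein is often used to judge complex I assembly, read 9.02 and 8.92 in the arrays labelled KO and 9.35 and 9.49 in the arrays labelled WT. Its difference was -0.45 (SE 0.13, 0.73-fold, unadjusted limma p 0.0190, adjusted 0.392), and it was separated downward while 9 of the 12 clusters of this set were higher. Ndufb4b, a copy gene of the accessory subunit Ndufb4, read 13.98 and 14.22, against 13.74 and 13.84, a difference of 0.31 (SE 0.11, limma adjusted p 0.466), which was 0.19 without KO replicate 2. Ndufb3, a membrane-arm subunit, had nearly the same size: 13.41 and 13.42 in the arrays labelled KO and 12.98 and 13.25 in the arrays labelled WT, with a difference of 0.30 (SE 0.12, limma adjusted p 0.502). Ndufb9, another membrane-arm subunit, had the next smallest p among the lower members of complex I, with 13.23 and 13.24, against 13.30 and 13.37.

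Of 7 complex I assembly factors, 4 were higher and 3 lower. Ndufaf7, a methyltransferase that modifies a core subunit during assembly, read 7.75 and 7.76 in the arrays labelled KO and 8.15 and 8.00 in the arrays labelled WT (difference -0.32, SE 0.13, limma adjusted p 0.499). Ndufaf6 read 7.94 and 7.76, against 7.97 and 8.33, and the others overlapped or were higher, up to 0.23 for Ndufaf2.

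Complex II, succinate dehydrogenase, links the tricarboxylic acid cycle to the chain. Sdhc, a membrane anchor, had the largest negative difference of all members, -0.52 (SE 0.25, limma adjusted p 0.564), with 7.88 and 7.67 in the arrays labelled KO and 7.96 and 8.63 in the arrays labelled WT. That size rested on WT replicate 3, without which the difference was -0.18. The flavoprotein Sdha read 11.45 and 11.26, against 11.38 and 11.60, the iron-sulphur subunit Sdhb 12.64 and 12.60, against 12.47 and 12.64, and the second anchor Sdhd 8.53 and 8.22, against 8.48 and 8.15. In all 3 the groups overlapped.

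In complex III, which hands electrons from ubiquinol to cytochrome c, the 9 clusters had differences of 0.01 to 0.33. Uqcrq, a small subunit of the complex, read 13.97 and 13.72 in the arrays labelled KO, above 13.42 and 13.61 in the arrays labelled WT, a difference of 0.33 (SE 0.13, 1.26-fold, unadjusted limma p 0.0496, adjusted 0.490), which was 0.14 after quantile normalization and 0.21 without KO replicate 1. Uqcr10 was the other separated cluster, with 10.49 and 10.35, against 10.12 and 10.33. The haem protein Cyc1 read 12.65 and 12.48, against 12.39 and 12.55, and overlapped. WT replicate 1 was the lowest array for 8 of the 9 clusters.

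Cytochrome c, the soluble carrier between complexes III and IV, is encoded by Cycs and had 2 clusters. The one whose identifier names chromosome 6, where RefSeq places the gene, read 13.11 and 12.96 in the arrays labelled KO and 12.83 and 12.94 in the arrays labelled WT, a difference of 0.15 (SE 0.11, limma adjusted p 0.733), which was -0.02 after quantile normalization. The other, whose identifier names chromosome 19, read 15.21 and 15.31, against 14.79 and 14.87 in the arrays labelled WT. Its difference of 0.43 (SE 0.08, 1.35-fold, 95% interval 0.23 to 0.63, limma adjusted p 0.288) had the smallest p among the members, and was 0.23 after quantile normalization. Identifiers named the RefSeq chromosome for 99.6% of 22445 named clusters and for all but 3 of 96 members, the others being an Atp5g2 and an Atp5l cluster. What that Cycs cluster detects is not stated in the sources, so its value may not be that of the gene on chromosome 6.

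The second Cycs cluster had the smallest p but may not report the chromosome 6 gene, whose own cluster differed by 0.15 (limma adjusted p 0.733). Promoters are shown for the chromosome 6 Cycs gene and for the paralogues Cox7a2 and Cox7a2l, which differed in opposite directions. That of Atp5e, the complex V member with the largest negative difference, is shown as well. Each is the 250 bases before the RefSeq transcript start (GRCm38.p6), 5′ to 3′, and capitals mark motif matches.
Cycs, chr6:50566570-50566819, strand -: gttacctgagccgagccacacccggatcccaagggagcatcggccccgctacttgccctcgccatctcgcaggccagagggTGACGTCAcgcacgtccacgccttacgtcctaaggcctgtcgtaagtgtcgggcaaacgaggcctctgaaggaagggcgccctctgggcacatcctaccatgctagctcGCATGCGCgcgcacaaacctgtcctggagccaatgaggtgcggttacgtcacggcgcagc
Cox7a2, chr9:79759854-79760103, strand -: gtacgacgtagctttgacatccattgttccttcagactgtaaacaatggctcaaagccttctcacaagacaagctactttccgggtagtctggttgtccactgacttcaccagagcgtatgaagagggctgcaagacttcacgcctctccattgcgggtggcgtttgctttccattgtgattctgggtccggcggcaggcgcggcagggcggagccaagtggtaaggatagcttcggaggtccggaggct
Cox7a2l, chr17:83514334-83514583, strand -: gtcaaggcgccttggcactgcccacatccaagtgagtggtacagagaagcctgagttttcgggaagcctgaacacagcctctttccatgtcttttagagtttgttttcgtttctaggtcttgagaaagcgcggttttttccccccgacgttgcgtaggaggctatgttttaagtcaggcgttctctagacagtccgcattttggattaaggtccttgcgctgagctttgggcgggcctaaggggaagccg
Atp5e, chr2:174464102-174464351, strand -: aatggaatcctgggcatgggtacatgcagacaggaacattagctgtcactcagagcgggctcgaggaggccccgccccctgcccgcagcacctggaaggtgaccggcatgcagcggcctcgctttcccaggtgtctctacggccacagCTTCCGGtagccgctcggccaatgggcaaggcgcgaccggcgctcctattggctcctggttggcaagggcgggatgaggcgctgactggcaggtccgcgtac
The motifs, searched on both strands, were a core of nuclear respiratory factor sites (GCATGCGC), an ETS family core of the kind GABPA binds (CCGGAAG), a YY1 core (AANATGGC) and a cyclic AMP response element (TGACGTCA), with no overlap between different motifs in these 4 promoters. Cycs held a response element starting at -169 and a nuclear respiratory factor core at -60, and Atp5e an ETS core at -102. The promoters of Ndufb8, Cox7b2 and Ndufb4b, members with an unadjusted limma p under 0.05 that are not shown, held no match. RefSeq promoters were found for 75 of the 93 genes. The nuclear respiratory factor core lay in 12% of these genes, beside 3.32% of 17491 coding genes and 2.26% of all 32851 promoters. The ETS core lay in 17.3% (10.2% of coding genes and 6.91% of all promoters), the YY1 core in 10.7% (4.29% and 3.91%) and the response element in 5.33% (2.20% and 1.55%). A match is a description of these letters, and no difference was tied to it.

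Complex IV, which reduces oxygen, has subunits with tissue isoforms. The 6 isoforms that most tissues use (Cox4i1, Cox6a1, Cox6b1, Cox7a2, Cox7b and Cox8a) read between 12.54 and 16.47 in the 4 arrays, and the 8 known as restricted to muscle, lung, testis or hypoxic cells (Cox4i2, Cox6a2, Cox6b2, Cox7a1, Cox7b2, Cox8b, Cox8c and Ndufa4l2) between 3.31 and 6.72, 5 of them with a mean below the median cluster. Probes of different clusters differ in response, so these ranges place each isoform against the array and not against each other. Of the broadly used isoforms, 5 differences were positive and 1 negative (median 0.08), and of the restricted ones 3 were positive and 5 negative (median -0.04).

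Within the Cox7a family the members differed in direction. Cox7a2, the broadly used subunit of the complex IV dimer interface, read 16.47 and 16.46 in the arrays labelled KO and 16.26 and 16.33 in the arrays labelled WT, a difference of 0.17 (SE 0.06, 1.13-fold, unadjusted limma p 0.0311, adjusted 0.430), which became -0.03 after quantile normalization. Cox7a2l is known as a factor of supercomplexes of III and IV, and whether it acts so in these mice was not tested. Cox7a2l read 12.47 and 12.41, against 12.70 and 12.82 in the arrays labelled WT, a difference of -0.32 (SE 0.11, 0.80-fold, unadjusted limma p 0.0287, adjusted 0.424). The groups did not overlap for either gene. The log2 ratio of Cox7a2 to Cox7a2l within an array was 4.0 and 4.05 in the arrays labelled KO, against 3.56 and 3.51 in the arrays labelled WT. That is a shift of 0.49, which was 0.45 after quantile normalization and 0.46 to 0.52 without any 1 array. The pair was singled out because its members were separated in opposite directions, so the shift is only a description. An exact permutation over the 6 splits of the arrays gave a two-sided p of 0.333. That is the smallest value possible with 2 against 2 arrays, so it cannot decide. Cox7a1, the muscle isoform, read 6.41 and 6.72, against 6.30 and 6.65.

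Cox7b2, the testis isoform of Cox7b, read 4.49 and 4.52 in the arrays labelled KO and 4.77 and 5.18 in the arrays labelled WT, a difference of -0.47 (SE 0.15, unadjusted limma p 0.0259, adjusted 0.419). It was -0.26 without WT replicate 3 and -0.67 without WT replicate 1. The cluster lies below the median cluster, and the table carries no detection call. Cox7b itself read 12.99 and 12.95, against 12.88 and 12.77. Cox6b2 had the largest positive difference of complex IV, 0.25 (SE 0.19, limma adjusted p 0.740), with overlapping arrays (5.64 and 6.08, against 5.75 and 5.47). It rested on KO replicate 2, without which it was 0.03, and was 0.47 without KO replicate 1.

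The remaining complex IV pairs differed little. Cox4i1, which opens assembly beside the catalytic subunits, read 13.14 and 13.05 in the arrays labelled KO and 13.02 and 13.08 in the arrays labelled WT, and its lung isoform Cox4i2 5.78 and 5.69, against 5.73 and 5.89. Cox6a1 read 12.54 and 12.88, against 12.72 and 12.60, and its heart and muscle isoform Cox6a2 4.47 and 4.37, against 4.58 and 4.52. Cox6b1 read 13.94 and 14.07, against 13.74 and 14.04. These 5 differences lay between -0.13 and 0.12. Cox8a read 13.08 and 13.15 in the arrays labelled KO and 13.09 and 13.15 in the arrays labelled WT. Cox8b (4.01 and 4.36, against 3.87 and 4.36) and Cox8c (4.93 and 4.83, against 4.91 and 4.93) were at a low level and overlapped too. Ndufa4, first counted as a complex I subunit and now placed in complex IV, read 14.30 and 14.47, against 14.34 and 14.57, and its hypoxia-induced paralogue Ndufa4l2 3.44 and 3.31, against 3.37 and 3.43. Cox5b, a zinc-binding subunit, was separated upward, with 14.71 and 14.68, against 14.61 and 14.56 (difference 0.11, SE 0.08, and -0.09 after quantile normalization).

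**Figure D4:**
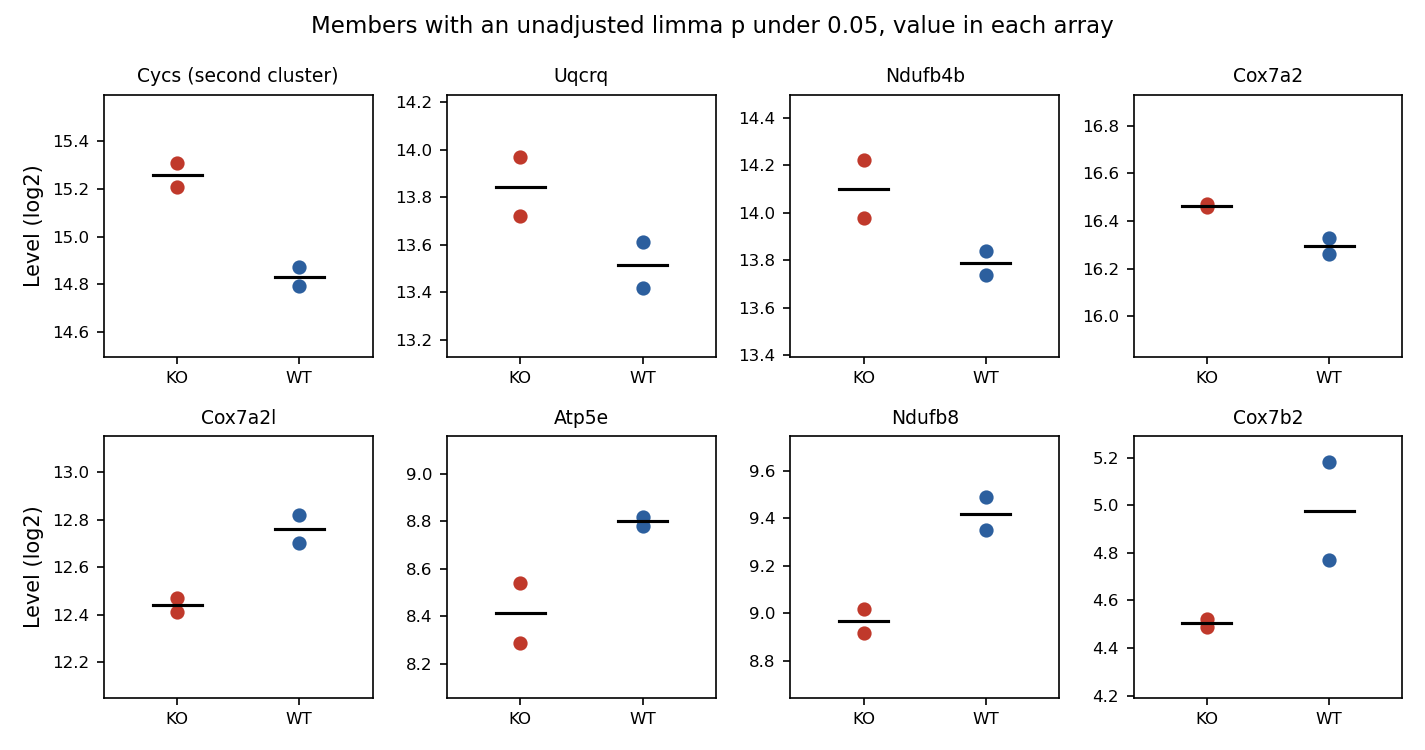
Level (log2, vertical axis, each panel spanning the same range around its mean) of the 8 members with an unadjusted limma p under 0.05, in the KO arrays (red) and the WT arrays (blue), with group means as bars. Cycs (its second cluster), Uqcrq, Ndufb4b and Cox7a2 are higher and Cox7a2l, Atp5e, Ndufb8 and Cox7b2 lower in the arrays labelled KO, without overlap, and none passes after adjustment.

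Complex V is described by the parts of the enzyme, and no difference between parts was tested. The catalytic head and central stalk had 5 clusters, 3 higher and 2 lower (median 0.01), and after quantile normalization 0 of 5 were higher. Atp5b, the catalytic beta subunit, read 12.34 and 12.21 in the arrays labelled KO and 12.12 and 12.11 in the arrays labelled WT (difference 0.16, SE 0.11). Atp5e, the small epsilon subunit of the central stalk, read 8.54 and 8.29, below 8.82 and 8.78 in the arrays labelled WT. Its difference was -0.39 (SE 0.15, 0.77-fold, unadjusted limma p 0.0438, adjusted 0.475). The delta subunit Atp5d had 2 clusters, at 4.39 and 4.34, against 4.46 and 4.47, where the groups were separated downward, and at 7.57 and 7.65, against 7.54 and 7.67, where they overlapped.

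The peripheral stalk, which holds the head still, had 4 of 4 clusters higher (median 0.15, and 0.06 after quantile normalization with 4 of 4 higher). Its mean level was 10.00 and 10.02 in the arrays labelled KO, against 9.76 in WT replicate 1, the lowest array for all 4 clusters, and 9.94 in WT replicate 3. Atp5pb (Atp5f1 on the platform) was the separated member, with 9.58 and 9.58, against 9.32 and 9.34 (difference 0.25, SE 0.12, limma adjusted p 0.575). The c ring, the proton-driven rotor, is encoded by Atp5g1, Atp5g2 and Atp5g3, whose mature protein is the same. Atp5g1 read 10.14 and 10.09, against 10.14 and 9.97, and Atp5g3 11.83 and 11.74, against 11.60 and 11.76. Atp5g2 read 11.44 and 11.73, against 11.37 and 11.55, in the cluster on its own chromosome, and 12.82 and 13.00, against 12.95 and 12.83, in the cluster whose identifier names chromosome 7. All 4 overlapped, with differences of 0.02 to 0.12, and after quantile normalization 1 of 4 was higher.

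The membrane accessory subunits, several of which shape the dimers that bend the inner membrane, had 8 of 8 clusters higher (median 0.19), and 5 of 8 after quantile normalization (median 0.07). Among the 8, 3 clusters stand for Atp5l and another for its related gene Atp5l2, so they are not 8 separate subunits. The g subunit gene Atp5l had 3 clusters with differences of 0.21 (15.00 and 15.20, against 14.90 and 14.87, under an identifier of chromosome 5 where RefSeq gives 9), 0.25 (8.67 and 8.60, against 8.41 and 8.36) and 0.17 (5.20 and 4.97, against 5.04 and 4.79). Its related gene Atp5l2 had 12.69 and 12.81, against 12.46 and 12.52 (difference 0.26, SE 0.11, limma adjusted p 0.502). After quantile normalization Atp5l2 was at 0.11 and the first of these Atp5l clusters at 0.02. The e subunit Atp5k had the largest positive difference of the complex, 0.32 (SE 0.22), with overlapping arrays, 8.73 and 8.94, against 8.24 and 8.79. That size rested on WT replicate 1, without which it was 0.05, and it was 0.60 without WT replicate 3.

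Other genes of the pathway were read from the same fit, and none passed a limma adjusted p under 0.05. Of the subunits encoded by mitochondrial DNA, 5 clusters were measured, 4 with a higher mean in the arrays labelled KO and 1 with a lower one (median 0.03). At an unadjusted limma p under 0.05, 0 were higher and 1 lower, where 6.40% of all named clusters were higher and 3.78% lower by the same rule. ND3, a complex I core subunit, read 14.00 and 14.24 in the arrays labelled KO, against 14.34 and 14.52 in the arrays labelled WT (difference -0.31, SE 0.12, limma adjusted p 0.490), and COX1, the catalytic subunit of complex IV, 18.85 and 18.83, against 18.84 and 18.79. Of 35 assembly factors outside the Nduf names, 1 was higher and 0 lower at an unadjusted p under 0.05 (2.86%, beside 10.2% of all named clusters), and 18 of 35 differences were below 0 (median -0.02). That 1 was Surf1, a complex IV assembly factor, with 12.19 and 12.10, against 11.79 and 11.85 (difference 0.33, SE 0.11, limma adjusted p 0.430).

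In the tricarboxylic acid cycle list of 15 clusters, 2 were higher and 1 lower at an unadjusted p under 0.05 (20.0%, beside 10.2% of all named clusters), with a median of 0.03. Suclg2, the GTP-forming succinyl-CoA ligase subunit one step before succinate dehydrogenase, read 6.37 and 6.33 in the arrays labelled KO and 7.21 and 7.92 in the arrays labelled WT. Its difference of -1.22 (SE 0.25, 0.43-fold, limma adjusted p 0.292) was larger in size than that of any respiratory chain member. The ATP-forming counterpart Sucla2 read 9.10 and 8.90, against 9.11 and 9.23. Pdhb, of pyruvate dehydrogenase, had a difference of 0.35 (SE 0.12, limma adjusted p 0.424) and Idh3g, of isocitrate dehydrogenase, 0.31 (SE 0.10, limma adjusted p 0.424). Of 16 regulators of mitochondrial biogenesis, 0 reached an unadjusted p under 0.05, beside 10.2% of all named clusters. Of the 16, 8 were higher and 8 lower (median -0.01), from -0.36 for Polg2 to 0.36 for Yy1. The groups did not overlap for 43.8% of these regulators, beside 38.6% of all named clusters. Tfam, which packages and transcribes mitochondrial DNA, read 10.05 and 9.89 in the arrays labelled KO and 10.07 and 10.03 in the arrays labelled WT.

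**Figure D5:**
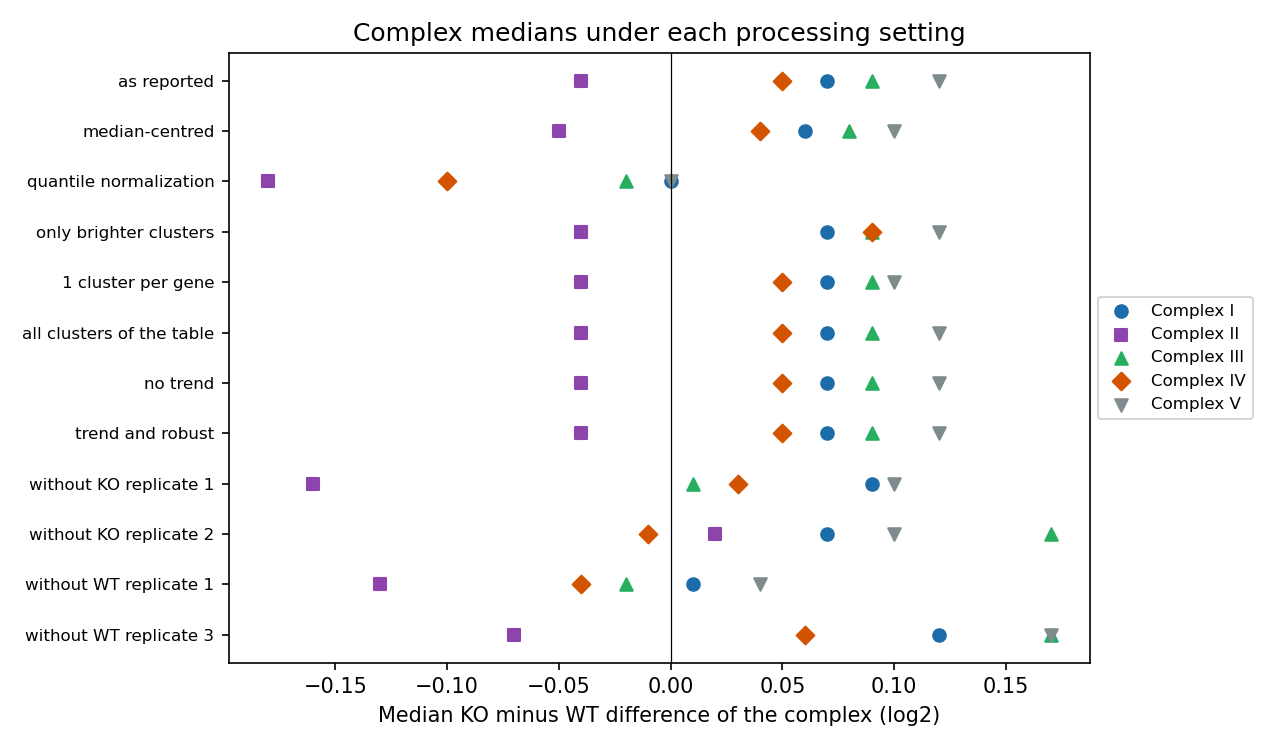
Median difference between the arrays labelled KO and WT (log2, horizontal axis) of each complex under each processing setting (vertical axis), by colour and symbol. The medians of complexes I, III and V lie between 0.07 and 0.12 as reported, and at or below 0.00 after quantile normalization.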

How the data were processed

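RNA of 4 samples was hybridised to 1-colour arrays. The authors deposited 1 table of log2 values, 1 per transcript cluster and array, made with RMA and Transcriptome Analysis Console per the submitters' processing notes, which give no version. The base is taken as 2 from RMA's convention. Background handling, build and annotation stay unstated in the sources read, and the labels' extraction text describes real-time PCR. Groups came from sample titles, and no batch is labelled. No per-sample column was left out (0 columns).

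Of 65528 clusters, 30390 had exactly 1 platform symbol, 2127 several, and 33011 were not listed. Symbols were updated by gene identifier to RefSeq (GRCm38.p6), which matched 22634. All 30390 were tested with limma 3.58.1 in R 4.3.3 (lmFit, eBayes with trend, two-sided, Benjamini-Hochberg over all clusters, threshold 0.05), with no filter on dim clusters. Errors are limma standard errors and 95% intervals. A simulation for KO against WT used 30390 clusters. In it, limma called 46.3% of clusters at a true log2 change of 1, 89.6% at 2 and 90.9% at 3, and 6 unchanged clusters. Changes below 1 were not simulated. The members' differences ran from -0.52 to 0.43, so these shares do not tell how often changes of that size would be called.

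Members, lists and tests were chosen with earlier results of these data known. Named members are complex II, Cyc1, Cycs and the tissue isoforms, and, in complexes I, III, IV and V, those with an unadjusted p under 0.05 (up to 4 a direction, or the 2 smallest p where fewer than 2) and the largest difference each way. Pathway genes are named where their unadjusted p was under 0.05. Others named were chosen after their values were seen. These were Ndufb3, Ndufs1, Ndufv1, the Nduf assembly factors, Atp5b, Atp5pb, further Atp5l clusters, Sucla2, Tfam, Polg2, Yy1 and COX1.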

Additional observations from a re-analysis of the deposited data

How the results depend on the processing

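No member passed a limma adjusted p under 0.05 under any alternative run, and the smallest among them ranged from 0.168 (brighter clusters) to 0.800 (without KO replicate 2). Over all clusters tested, 1 passed after median-centring, 14 among the brighter clusters, 4 over all clusters of the table, and 0 after quantile normalization, without a trend, with robust settings or without any 1 array (0 to 0), against 2 as reported. Members higher in the arrays labelled KO at an unadjusted p under 0.05 numbered 4 as reported, 1 after median-centring, 1 after quantile normalization, 2 over all clusters of the table and 1 to 6 without 1 array. Members lower numbered 4 as reported, 10 after quantile normalization and 0 to 5 without 1 array. Quantile normalization also left 41 members higher in place of 75, gave medians of -0.02 over all members, 0.00 in complexes I and V, -0.18 in complex II and -0.10 in complex IV, and turned Cox7a2 to -0.03. The cause was not tested. Leaving out 1 array moved the median of all members over 0.01 to 0.12, of complex IV over -0.04 to 0.06 and of complex V over 0.04 to 0.17. WT replicate 1 gave the low end in each. Leaving out clusters placed on another chromosome or with no single RefSeq gene, added after seeing the data, gave 70 higher and a median of 0.07. No paired analysis was possible because the groups share only replicate number 1.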

Other observations

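Clusters that by name or identifier may stand for a copy of a respiratory chain gene were read apart, after their values were seen, and no probe sequence was compared. These were the 3 members whose identifier names another chromosome than RefSeq does, the copy genes Ndufb4b and Atp5l2, and the 6 clusters left out by the rule for a -ps name or several symbols. Each of the 11 had a higher mean in the arrays labelled KO as deposited, by 0.02 to 0.43 on the log2 scale (median 0.26). Of them, 9 did not overlap, where 21.0% of all named clusters and 4417 of 15195 brighter ones were higher without overlap. After quantile normalization the member Atp5g2 cluster was at -0.16, Atp5l at 0.02, Atp5l2 at 0.11, Ndufb4b at 0.19 and Cycs at 0.23. Several of the 11 belong to the same gene or its copies, so they are not independent. Among named clusters that RefSeq types as pseudogenes, 149 of 212 (70.3%) were higher, 103 of them without overlap, with a median of 0.12. After the Cycs cluster of chromosome 19, the largest of the 11 were Atp5c1-ps, a pseudogene of the ATP synthase gamma subunit, with 7.35 and 7.34 in the arrays labelled KO and 6.99 and 6.94 in the arrays labelled WT, and the cluster shared by Ndufa11 and Ndufa11b, with 9.56 and 9.26, against 8.97 and 9.08.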
